A study of Mus musculus with 8 samples.

Results

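The genes described here encode the proteins of the cytosolic ribosome and the initiation and elongation factors that work with it. They were taken by name: protein-coding genes whose mouse RefSeq symbol begins with Rpl, Rps (without the Rps6k kinases), Eif or Eef (without Eif4ebp), and whose span holds at least 1 m6A antibody site of the deposited table. Of 160 RefSeq genes with such names, 55 held a site, and together they held 242 of the 33774 sites. The name rule also took in genes that are neither ribosomal proteins nor translation factors, such as the eIF2 kinases (Eif2ak1, Eif2ak3 and Eif2ak4), the eEF1A methyltransferases (Eef1akmt1, Eef1akmt4 and Eef1aknmt) and Rps19bp1, whose protein binds a ribosomal protein.

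The libraries came from αTC1-6, an immortalized line of mouse pancreatic alpha cells, which make glucagon. M14KD cells were treated with an siRNA against Mettl14, the partner protein of the m6A methyltransferase, and SCR cells with a scramble siRNA. In m6A-eCLIP, RNA is crosslinked with ultraviolet light to an antibody against N6-methyladenosine (m6A), a methyl mark on adenosines of messenger RNA, and the bound fragments are sequenced (IP). An Input library of RNA from the same cells shows how much RNA was there before the antibody. Each of the 4 groups had 2 libraries: M14KD IP and SCR IP, M14KD Input and SCR Input, with replicates 3 and 4 in M14KD and 1 and 2 in SCR. Whether the libraries of a group came from different cultures is not stated in the labels; a p-value then measures only how far these libraries spread, which may be technical.

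Site counts summed to between 10207383 and 10918559 in an IP library and between 3438530 and 3637740 in an Input library. The targeted gene Mettl14 held 2 sites, with 42 and 25 counts in the M14KD IP libraries against 78 and 81 in the SCR IP libraries, and 32 and 22 counts in M14KD Input against 64 and 44 in SCR Input. Its M14KD libraries lay below its SCR libraries in both, and edgeR's quasi-likelihood test gave log2 changes of -1.18 ± 0.24 (SE, adjusted p = 0.148) in IP and -0.95 ± 0.27 (SE, adjusted p = 0.227) in Input. Of the alpha cell markers reported here, 8 held a site, glucagon included. None of the 7 beta cell markers or the 3 delta and PP cell markers held one. Chi-square divided by its degrees of freedom was between 2.51 and 5.01 in the 4 pairs of an M14KD with an SCR IP library, 1.96 between both M14KD IP libraries and 2.56 between both SCR IP libraries.

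A ribosome is built from a large (60S) and a small (40S) subunit, each made of ribosomal RNA and many ribosomal proteins. Initiation factors (eIF) bring the initiator tRNA and the mRNA to the small subunit and find the start codon, and elongation factors (eEF) deliver aminoacyl-tRNAs and move the ribosome along. The kinases of eIF2 slow initiation across the cell when it is stressed. m6A on mammalian mRNA is known to lie mostly in long internal exons, around stop codons and in 3′ untranslated regions, and mRNAs of ribosomal proteins are short and abundant.

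Ribosomal protein genes seldom held a site, and the factors often did. A site lay in 13 of 91 Rpl and Rps genes (14.3%) and in 42 of 69 Eif and Eef genes (60.9%), while 31.1% of all 21900 protein-coding genes held one. By role, 9 of 56 genes of the 60S subunit held 24 sites and 3 of 33 genes of the 40S subunit (Rps12, Rps24 and Rps27l) held 3 sites. The eIF4 group, which recognises the mRNA cap and unwinds the leader, held 49 sites in 8 of 14 genes. The eEF1 group held 44 sites in 10 of 12 genes. Of these sites, 20 lay in the eEF1A methyltransferase genes with the Eef1akmt4 readthrough gene and 24 in the other genes, such as those of eEF1A, which delivers aminoacyl-tRNAs. Start codon selection with the ternary complex held 37 sites in 8 of 13 genes. The genes of the eIF2 subunits themselves (Eif2s1, Eif2s2, Eif2s3x and Eif2s3y) held no site. The eIF3 scaffold held 22 sites in 5 of 14 genes, and all 3 genes of the eEF2 group (Eef2, its kinase Eef2k and its methyltransferase Eef2kmt) held 20 sites in all. The eIF2 kinases held 17 sites in 3 of 4 genes, and eIF2B, which recharges eIF2 with GTP, 10 sites in 2 of 5.

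Most sites were counted for 1 gene. Of the 242 sites, 238 lay in the span of a single protein-coding gene and were summed for 52 genes. The other 4 sites lay in overlapping spans, and 3 genes (Eef1akmt4, its readthrough gene Eef1akmt4-ece2, and Eif2d) had only such sites and were left out of the sums. In genes with a known strand, the median site lay at 87.6% of the span from its 5′ end in translation genes (206 sites) and at 88.9% in all other protein-coding genes (25427 sites). The first 50 bases of the span held 5 of the 28 sites of Rpl and Rps genes (17.9%), 1 of the 178 sites of Eif and Eef genes (0.562%) and 1.17% of the sites of all other genes. Those 5 sites lay in Rpl41, Rpl37a, Rpl24 and Rpl7a. Rpl24 had at most 16 counts in a library and Rpl7a at most 10. The span of Rpl41 is 1059 bases, and 50 bases are a larger part of a short span. The files do not mark exons, so a place in the coding region or an untranslated region is not given.

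Sites near a transcription start are shown because they made up a larger share of the sites of Rpl and Rps genes than of Eif and Eef genes, and because they are the sites whose surrounding sequence could be read. Each window is 29 bases of the RefSeq strand of the gene on GRCm38.p6 (mm10), written 5′ to 3′, and the capital marks the base of the site.
Rpl37a, chr1:72711273-72711301, plus strand: gcgcattgcgtcccTtcctcttcggactt
Rpl41, chr10:128549121-128549149, minus strand: acgccattaaatagCagtaggcctccctc
Rpl24, chr16:55966289-55966317, plus strand: cgctcggaagtgacAtcatctctgggcgc
Eef1a2, chr2:181156966-181156994, minus strand: ccctcgctccggtgcatcAttgcagctgc
Eif5a, chr11:69921263-69921291, minus strand: gacccgtgtgcagcAgcggcggcggcgct
The marked bases were base 28 of the Rpl37a transcript, base 34 of Rpl41, base 29 of Rpl24 and base 40 of Eef1a2, and the Eif5a site lay 2 bases before a RefSeq start inside that gene's longer span. An adenosine stood at 3 of the 9 translation gene sites in the first 49 bases after a RefSeq start. Over all genes, 37.3% of 461 such sites were at an adenosine, against 21.7% of every base in those stretches. The middle A of GAC or AAC, the core of the sequence that the methyltransferase prefers, stood at 0 of the 9 sites, at 3.04% of the 461 sites and at 2.40% of every base. A site is a position in the deposited table, and the letters alone do not show whether its base carries m6A.

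Reads of translation genes came mostly from a few of them. All translation genes together made up 1.47% and 1.52% of the site counts in M14KD IP against 1.56% and 1.62% in SCR IP, and 1.64% and 1.74% in M14KD Input against 1.68% and 1.81% in SCR Input. Eef2, the factor that moves the ribosome by a codon, had the highest count of the genes described here and averaged 5174 counts per 1000000 site counts of the library (CPM) over the 4 Input libraries, rank 12 of 6342 genes. Rpl41, a very short protein of the 60S subunit, averaged 2327 CPM (rank 27), and Eef1a1, the main carrier of aminoacyl-tRNAs, 1355 CPM (rank 55). Eif4g1, the scaffold of the cap-binding complex, averaged 1264 CPM (rank 60), and Eef1a2, the form of eEF1A typical of neurons and muscle, 1075 CPM (rank 75). These values sum all sites of a gene and are not divided by its length. The median translation gene had 82.5 CPM in Input and 79.6 CPM in IP, against 27.5 and 43.3 CPM for the median of all genes. The Rpl and Rps genes, Rps19bp1 included, took 0.228% and 0.212% of the counts in M14KD IP against 0.196% and 0.200% in SCR IP. In Input they took 0.344% and 0.341% in M14KD against 0.289% and 0.312% in SCR. The M14KD libraries were the higher ones in both. Rpl41 alone gave most of these counts in Input: 8947 of 12417 and 8566 of 11735 in M14KD, and 7476 of 10458 and 8273 of 11338 in SCR. Many ribosomal protein genes and Eef1a1 have near-identical processed copies elsewhere in the genome, and how reads that fit several places were treated is not given in the sources used here, so these counts are uncertain.

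The first comparison asked how strongly the m6A antibody took up each gene, as IP over Input. Translation genes were mostly below the average gene. In M14KD cells, 32 of the 51 genes tested were lower in IP than in Input and 6 were higher, while 35.8% of all 6218 genes were lower and 35.7% higher (edgeR quasi-likelihood test, adjusted p under 0.05). In SCR cells, 32 were lower and 7 higher, while 34.9% of all genes were lower and 35.3% higher. The median log2 ratio of translation genes was -0.80 in M14KD and -0.82 in SCR, beside 0.02 and 0.04 for all genes. The zero of this ratio is set by TMM scaling, which centres the average gene. With column totals alone the median of all genes stood at 0.73 in M14KD and 0.75 in SCR, and translation genes had medians of -0.09 in M14KD and -0.10 in SCR; 19 were then lower and 18 higher in M14KD, and 20 lower and 18 higher in SCR, where 17.2% and 16.7% of all genes were lower and 61.6% and 62.7% higher. Genes with higher Input counts in general had lower ratios. Input is also the denominator of the ratio, so this can be partly built in, and it sums all sites of a gene. All genes were split into 3 equal tertiles of Input count. In SCR, 25 of 30 translation genes of the top tertile were lower (median -0.96), against 48.0% of the 2043 other genes (median -0.18). In the middle tertile, 5 of 13 translation genes were lower, against 34.9% of the others, and in the lowest tertile 2 of 8, against 21.4%.

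**Figure D1:**
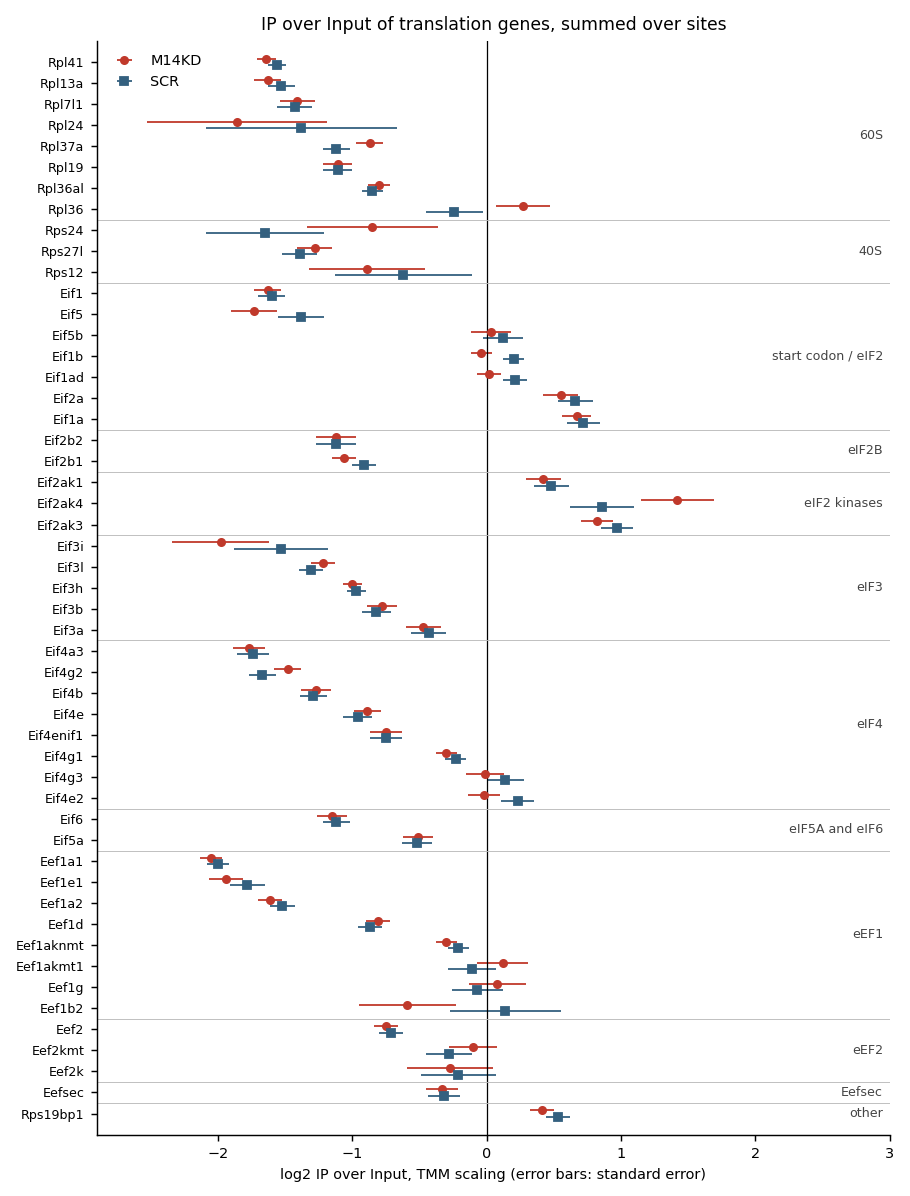
Log2 IP over Input (x axis, TMM scaling, where 0 is about the average gene) of the 51 translation genes tested, from each gene's summed site counts, grouped by role. Red circles are M14KD and blue squares SCR, each fitted from 2 IP and 2 Input libraries, and bars are standard errors; most genes lie left of 0, and the 3 eIF2 kinases lie right of it in both.

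Among ribosomal proteins the ratios were low nearly throughout. Of the 8 genes of the 60S subunit tested, 7 were lower in IP than in Input in M14KD and 6 in SCR; of the 3 genes of the 40S subunit, 1 was lower in M14KD and 2 in SCR, and none of these 11 was higher in either. Rpl41 had 1336 and 1229 CPM in M14KD IP and 2475 and 2491 CPM in M14KD Input. In SCR it had 1166 and 1203 CPM in IP and 2067 and 2274 CPM in Input. Every Input library of Rpl41 was thus above every IP library, and its log2 ratio was -1.64 ± 0.07 (SE, adjusted p = 5.24e-11) in M14KD and -1.56 ± 0.07 (SE, adjusted p = 8.16e-11) in SCR. Rpl13a, another 60S protein, had log2 ratios of -1.63 ± 0.10 in M14KD and -1.53 ± 0.10 in SCR, and Rps27l, of the 40S subunit, -1.28 ± 0.13 and -1.39 ± 0.13 (SE). Rpl36, a 60S protein, was the one whose sign differed between the fits, at 0.27 ± 0.20 (SE, adjusted p = 0.251) in M14KD and -0.24 ± 0.21 (SE, adjusted p = 0.317) in SCR, neither past the threshold. Rps19bp1 was higher in both, at 0.41 ± 0.09 in M14KD and 0.53 ± 0.09 in SCR (SE). Rpl7a had at most 10 counts in any library and was not tested. Genes of mitochondrial ribosomal proteins (Mrpl and Mrps), which the name rule leaves out, also had low ratios. Of 50 tested, 36 were lower and 8 higher in M14KD (median -0.66). In SCR, 34 were lower and 9 higher (median -0.54).

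The low counts of some ribosomal proteins limit what can be said of them. Rpl24 had 1.23 and 0.490 CPM in M14KD IP against 0.366 and 1.51 CPM in SCR IP, Rps12 had 1.99 and 1.67 against 1.37 and 1.51 CPM, and Rps24 had 1.23 and 1.27 against 1.01 and 1.23 CPM. Their ratios had standard errors between 0.43 and 0.71 on the log2 scale. Rps24 passed the threshold in SCR (-1.65 ± 0.44, SE, adjusted p = 0.00333) and not in M14KD (-0.85 ± 0.49, SE, adjusted p = 0.158), and the difference between those ratios, 0.80 ± 0.63 (SE), did not pass the test.

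Initiation factors divided by role. All 5 eIF3 genes tested and both eIF2B genes were lower in IP than in Input in M14KD and in SCR, as were 6 of 8 eIF4 genes. The lowest eIF4 gene was Eif4a3, an RNA helicase of the exon junction complex, with 65.5 and 65.1 CPM in M14KD IP and 152 and 125 CPM in M14KD Input. It had 65.9 and 73.3 CPM in SCR IP and 134 and 155 CPM in SCR Input, with log2 ratios of -1.77 ± 0.12 in M14KD and -1.74 ± 0.12 in SCR (SE). Eif4g2, which supports initiation without eIF4E, had log2 ratios of -1.48 ± 0.10 and -1.67 ± 0.10, and the cap-binding protein Eif4e -0.89 ± 0.10 and -0.96 ± 0.11 (M14KD, then SCR, SE). Eif4g1 was nearer the average gene, at -0.30 ± 0.08 (adjusted p = 0.00238) in M14KD and -0.23 ± 0.08 (adjusted p = 0.0144) in SCR, and with column totals it was above 0, at 0.41 in M14KD and 0.49 in SCR. Eif3a, a core subunit of eIF3, had -0.47 ± 0.13 and -0.43 ± 0.13 (SE), and 0.24 and 0.28 with column totals.

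All 3 eIF2 kinases tested were higher in IP than in Input, in M14KD and in SCR. Eif2ak3 (PERK, which senses unfolded proteins in the endoplasmic reticulum) had 137 and 141 CPM in M14KD IP and 43.7 and 54.7 CPM in M14KD Input. In SCR it had 142 and 155 CPM in IP and 43.4 and 50.3 CPM in Input. The IP and Input libraries did not overlap, and the log2 ratio was 0.82 ± 0.12 (SE, adjusted p = 1.88e-05) in M14KD and 0.97 ± 0.12 (SE, adjusted p = 3.15e-06) in SCR. Eif2ak4 (GCN2, which senses uncharged tRNA) had 1.42 ± 0.27 in M14KD and 0.86 ± 0.24 in SCR, and Eif2ak1 (HRI, the heme-regulated kinase) 0.42 ± 0.13 and 0.48 ± 0.13 (SE). Eif2ak4 was the least counted of them, with 19.2 and 16.2 CPM in M14KD IP against 18.1 and 18.3 in SCR IP, and 4.15 and 4.07 CPM in M14KD Input against 4.42 and 7.97 in SCR Input.

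Genes of start codon selection lay on both sides of the average gene: of the 7 tested, 2 were lower and 2 higher in M14KD, and 2 were lower and 3 higher in SCR. Eif1, which guards the accuracy of start codon choice, had log2 ratios of -1.63 ± 0.10 in M14KD and -1.60 ± 0.10 in SCR, and Eif5, which triggers GTP hydrolysis by eIF2, -1.73 ± 0.17 and -1.38 ± 0.17 (SE). Eif1a, which promotes scanning, was higher in IP than in Input, at 0.67 ± 0.11 and 0.72 ± 0.12, and so was Eif2a, an alternative carrier of the initiator tRNA, at 0.55 ± 0.13 and 0.66 ± 0.13 (SE). Eif1b, a close relative of Eif1, had 491 and 468 CPM in M14KD IP against 506 and 530 CPM in SCR IP, and 317 and 297 CPM in M14KD Input against 293 and 264 CPM in SCR Input. Its M14KD libraries were thus lower in IP and higher in Input. Its ratio passed the threshold in SCR (0.20 ± 0.08, SE, adjusted p = 0.0315) and not in M14KD (-0.04 ± 0.08, SE, adjusted p = 0.654), and the difference of the ratios was -0.25 ± 0.11 (SE), which did not pass the test.

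Of the 8 eEF1 genes tested, 5 were lower in IP than in Input in M14KD and in SCR and none was higher. Eef1a1 had the lowest ratio of all 51 genes, -2.05 ± 0.08 (SE, adjusted p = 2.06e-11) in M14KD and -2.00 ± 0.08 (SE, adjusted p = 2.62e-11) in SCR. Its relative Eef1a2 had -1.61 ± 0.09 and -1.52 ± 0.09, and Eef1e1, a part of the aminoacyl-tRNA synthetase complex, -1.94 ± 0.13 and -1.78 ± 0.13 (SE). Eef2 had -0.75 ± 0.09 in M14KD and -0.71 ± 0.09 in SCR; with column totals its ratio in SCR was 0.01. Eef1aknmt, which methylates eEF1A, was close to the average gene at -0.30 ± 0.08 and -0.21 ± 0.08 (SE).

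Sites of a gene spread widely. In the 19 genes with at least 5 sites tested, the highest and the lowest site of a gene lay 2.52 apart in M14KD and 2.76 apart in SCR on the log2 scale (medians), while the ratio of a site in M14KD and in SCR differed by 0.11 (median over their 166 sites). Of 241 sites tested, 40 were higher in IP than in Input and 142 lower in M14KD, where 33.8% of all 33356 sites were higher and 33.1% lower; in SCR 49 were higher and 137 lower, where 34.0% of all sites were higher and 33.4% lower. The 16 sites of Eef2 (chr10:81176631-81182509, plus strand) all lay within 356 bases near the 3′ end of the span. The site at 81181948, the most 5′ of them, had the lowest log2 ratio, -3.60 ± 0.10 in M14KD and -3.85 ± 0.10 in SCR (SE). The next sites in order, at 81181978 and 81182016, had -2.83 and -1.94 in M14KD and -2.97 and -1.96 in SCR. The highest was at 81182262, with 0.17 ± 0.09 in M14KD and 0.23 ± 0.09 in SCR (SE). These sites lay 314 bases apart, and the ratio of the downstream one was higher by 3.77 log2 units in M14KD and by 4.08 in SCR. Neighbouring sites may share reads, since the width over which reads were counted is not given in the sources used here.

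Other genes held sites on both sides of the average. In Eif4g1, 15 sites between 33.0% and 35.1% of the span had log2 ratios from -1.85 to 0.32 in M14KD and from -1.98 to 0.37 in SCR. The site at chr16:20692470, near the 3′ end, was the highest of the gene, with 1.18 ± 0.10 in M14KD and 1.32 ± 0.09 in SCR (SE). In Eef1a2 the site at base 40 of the transcript had -2.34 ± 0.13 in M14KD and -2.31 ± 0.12 in SCR (SE), and 3 sites between 25.9% and 26.1% of the span had -2.00 to -1.79. Sites near 63.0% of that span reached 1.19 ± 0.17 in M14KD and 1.01 ± 0.15 in SCR (SE), so this gene, low as a sum, held enriched sites. Rpl41 ran the other way: its site at base 34 had -0.52 ± 0.10 in M14KD and -0.54 ± 0.10 in SCR, and the last site, at 83.1% of the span, -1.99 ± 0.09 and -1.91 ± 0.09 (SE). In Eif2ak3, 9 of the 11 sites lay between 79.1% and 79.9% of the span, and the highest of them had 2.13 ± 0.27 in M14KD and 2.17 ± 0.25 in SCR (SE).

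**Figure D2:**
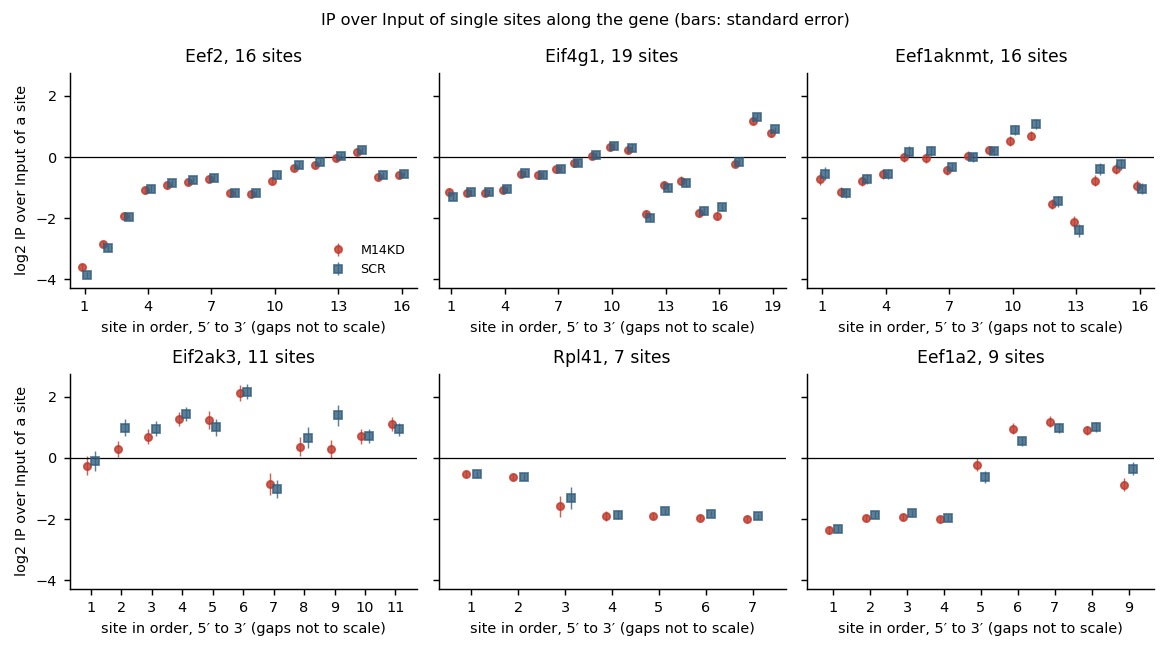
Log2 IP over Input (y axis) of every site tested in 6 genes with many sites or a wide spread, in order from 5′ to 3′ (x axis; gaps between sites are not to scale). Red circles are M14KD, blue squares SCR and bars standard errors; both follow the same profile, with Eef2 lowest at its most 5′ site (-3.60 in M14KD and -3.85 in SCR) and Rpl41 lowest toward its 3′ end.

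The second comparison asked which translation genes gained or lost antibody reads after Mettl14 knockdown. In the IP libraries 0 of 51 translation genes passed the edgeR test at an adjusted p under 0.05, and 0% of all 6218 genes did. Unadjusted p was under 0.05 for 11 translation genes and for 894 of all genes. DESeq2 called 2 of the translation genes, Eef1a1 lower (adjusted p = 0.00903) and Rpl36al higher (adjusted p = 0.0099), among 44 genes in all. The median log2 change was -0.03 for translation genes and -0.0017 for all genes. The 12 Rpl and Rps genes tested had a median of 0.18, with 10 above 0. The 39 Eif and Eef genes had a median of -0.08, with 13 above 0, where 49.6% of all genes were above 0. The Mrpl and Mrps genes, which are not members, also leaned upward: 40 of 49 tested were above 0, with a median of 0.07. Both M14KD libraries lay above both SCR libraries in 12 translation genes (23.5%), against 19.8% of all genes, and below them in 16 (31.4%), against 26.6%, shares near those of all genes. Of those 12 higher genes, 9 were among the 12 Rpl and Rps genes tested, and of those 16 lower genes, 0 were. The 9 took in Rps19bp1 and 2 genes with few counts. These were Rps12, with 21 and 17 counts in M14KD IP against 15 and 16 in SCR IP, and Rps24, with 13 and 13 against 11 and 13.

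**Figure D3:**
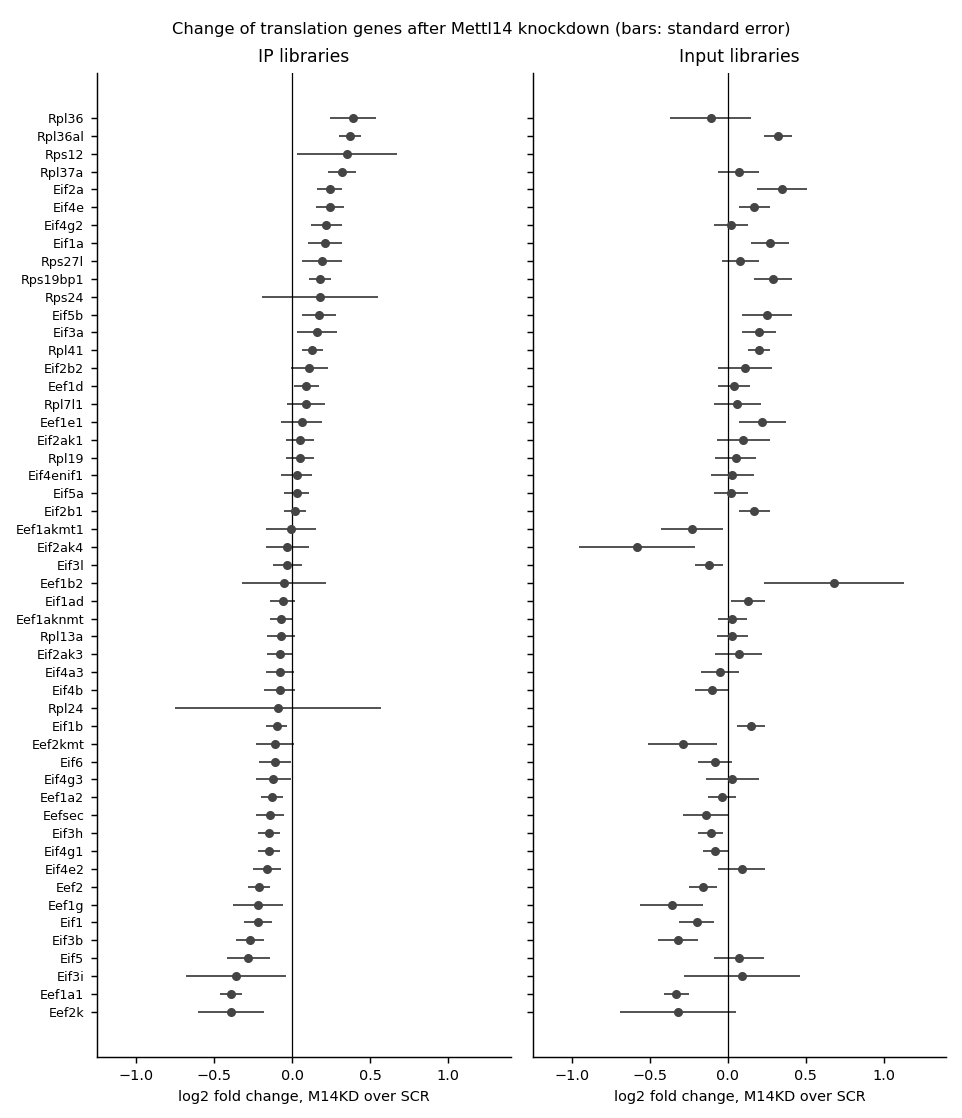
Log2 fold change of M14KD over SCR (x axes) for each translation gene in the IP libraries (left) and in the Input libraries (right), ordered by the IP change; points are fitted values from 2 libraries a group and bars are standard errors. IP changes lie between -0.39 and 0.39, none passed the edgeR test, and a gene with no point on the right had too few Input counts to test.

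Eef1a1 had the most negative IP change relative to its standard error. It had 440 and 487 CPM in M14KD IP against 624 and 600 CPM in SCR IP, and 1271 and 1123 CPM in M14KD Input against 1481 and 1546 CPM in SCR Input. The groups did not overlap in IP or in Input. The log2 change was -0.39 ± 0.07 (SE, edgeR adjusted p = 0.148) in IP and -0.33 ± 0.08 (SE, adjusted p = 0.172) in Input, and the change of IP over Input was -0.06 ± 0.11 (SE). Over 11 alternatives the log2 change ran between -0.47 and -0.31 in IP and between -0.42 and -0.25 in Input. DESeq2 called Eef1a1 in IP (adjusted p = 0.00903), in a fit that called 0.695% of all genes. It also called Eef1a1 in Input (adjusted p = 0.0322), where it called 0.364% of all genes.

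Rpl36al, a 60S protein with a close paralog, had the most positive IP change relative to its standard error. It had 345 and 331 CPM in M14KD IP against 270 and 260 CPM in SCR IP, and 388 and 346 CPM in M14KD Input against 294 and 298 CPM in SCR Input. The groups did not overlap in either. The log2 change was 0.37 ± 0.07 (SE, edgeR adjusted p = 0.148) in IP and 0.32 ± 0.09 (SE, adjusted p = 0.231) in Input, with 0.05 ± 0.12 (SE) for IP over Input. Over 11 alternatives its log2 change in IP ran between 0.34 and 0.40. DESeq2 called it in IP (adjusted p = 0.0099), in a fit that called 0.695% of all genes.

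Single sites were tested as well, and 5 of 241 translation gene sites (2.07%) passed in IP, where 0.63% of all 33348 sites did (0.255% higher and 0.375% lower). In Eef1a1, 3 of its 4 sites were lower: chr9:78478591 with 160 and 171 CPM in M14KD IP against 227 and 215 CPM in SCR IP (log2 change -0.39 ± 0.08, SE, adjusted p = 0.0301), and its neighbours at 78478600 (adjusted p = 0.0375) and 78478615 (adjusted p = 0.0421). In Rpl36al, 2 of its 5 sites were higher: chr12:69183037 with 129 and 127 CPM in M14KD IP against 102 and 98.0 CPM in SCR IP (0.38 ± 0.08, SE, adjusted p = 0.036), and 69183039 (adjusted p = 0.0404). All 4 sites of Eef1a1 lay within 47 bases and all 5 of Rpl36al within 25 bases, so the sites of a gene are not separate evidence. The calls of these sites did not hold when an M14KD replicate was left out. A fit with a replicate left out leaves 1 library in a group, so its counts of sites called are not weighed here. In Input 0 of 234 translation gene sites passed, where 0.0929% of all sites did. Unadjusted p was under 0.05 at 32 of them and at 2620 of all 30147 sites. DESeq2 called 1 translation gene site in Input, in Eef1a1, among 34 sites in all.

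Eef2, the gene with the most reads, did not pass the test. It had 4445 and 4859 CPM in M14KD IP against 5234 and 5588 CPM in SCR IP, without overlap, and 4374 and 5369 CPM in M14KD Input against 5235 and 5716 CPM in SCR Input, with overlap. Its log2 changes were -0.21 ± 0.07 (SE, adjusted p = 0.268) in IP and -0.16 ± 0.09 (SE, adjusted p = 0.555) in Input. Rpl37a, a 60S protein with 1 site near its transcription start and fewer reads than the median translation gene, had 64.3 and 61.0 CPM in M14KD IP against 51.0 and 50.3 CPM in SCR IP, and 69.2 and 73.3 CPM in M14KD Input against 67.2 and 69.5 CPM in SCR Input. Its groups were apart in IP and overlapped in Input, with changes of 0.32 ± 0.09 (SE, adjusted p = 0.22) and 0.07 ± 0.13 (SE, adjusted p = 0.899). Rpl41 had changes of 0.13 ± 0.07 in IP and 0.20 ± 0.07 in Input, and Rps19bp1 0.18 ± 0.07 and 0.29 ± 0.12 (SE). Eif3b, the eIF3 subunit that helps scanning, had -0.27 ± 0.09 in IP and -0.32 ± 0.13 in Input (SE). None of these passed the test.

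**Figure D4:**
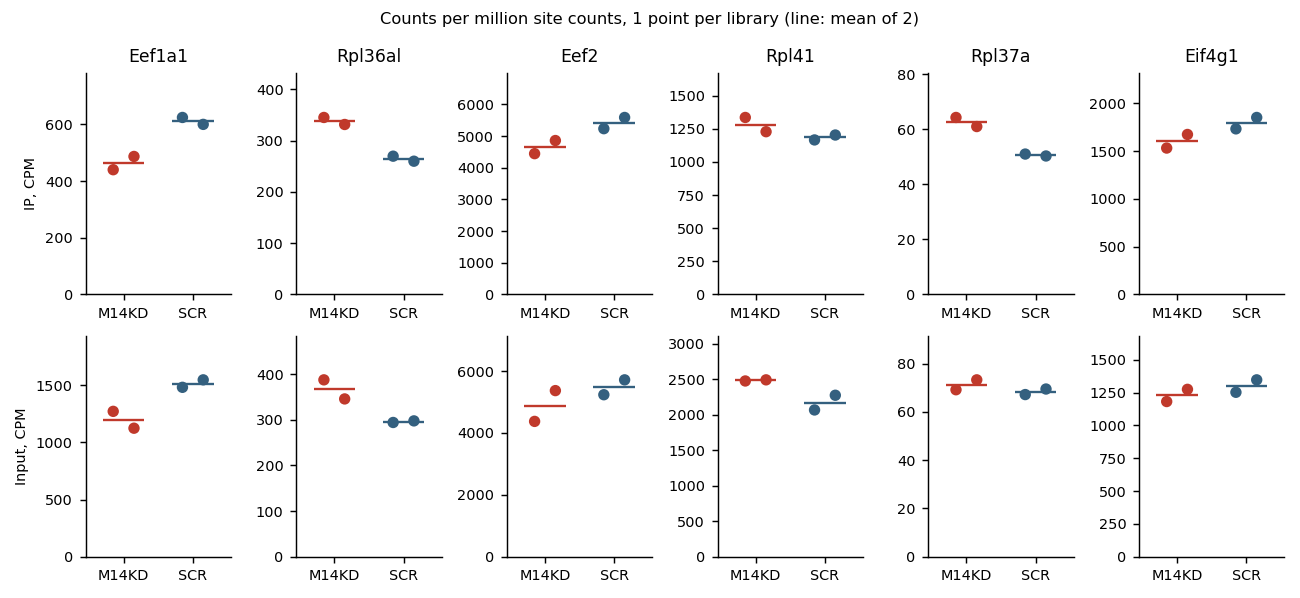
CPM (y axes, from 0) of 6 translation genes in each IP library (top) and each Input library (bottom), M14KD in red left of SCR in blue, with the mean of a group's 2 libraries as a line. Eef1a1 is lower and Rpl36al higher in M14KD in both rows without overlap, and Rpl37a is apart in IP and overlaps in Input.

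The RNA itself was compared in the Input libraries, where fewer cells holding an RNA and less of it per cell cannot be told apart. There 0 of 48 translation genes passed the edgeR test, and 0% of all 5712 genes did; unadjusted p was under 0.05 for 7 translation genes and 588 genes in all. DESeq2 called 1 of the translation genes, Eef1a1 (log2 change -0.33, adjusted p = 0.0322), among 23 genes in all. The median change was 0.04 for translation genes, 0.0033 for all genes, 0.07 for the 9 Rpl and Rps genes tested and 0.03 for the 39 Eif and Eef genes. Above 0 were 8 of those 9 and 22 of those 39, where 50.8% of all genes were above 0. The Rpl and Rps genes thus leaned upward in Input as in IP. Of 50 Mrpl and Mrps genes tested, 43 were above 0 and 7 below, with a median of 0.11. Both M14KD libraries lay above both SCR libraries in 11 genes (22.9%), against 19.6% of all genes, and below them in 11 (22.9%), against 21.3%. Of the 11 above, 4 were Rpl or Rps genes, and of the 11 below, 0 were.

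The third comparison asked whether IP over Input itself differed between M14KD and SCR cells, the measure of antibody uptake at a given RNA level. It did so for 0 of 51 translation genes and 0% of all 6218 genes by edgeR, and for 0 genes by DESeq2; unadjusted p was under 0.05 for 1 translation gene and 159 genes in all. With the replicate block, which pairs IP and Input libraries, unadjusted p was under 0.05 for 2 translation genes and 409 genes in all, and 0 genes passed. At sites it did so for 0 of 241 and 0% of all 33356. Unadjusted p was under 0.05 at 4 translation gene sites and at 1242 sites in all. With the block it was so at 14 translation gene sites and at 1997 sites in all, and 0 translation gene sites and 1 of all sites passed. The median difference was -0.04 on the log2 scale for translation genes and 0.0009 for all genes. The 5 genes with the highest Input counts had differences of -0.04 ± 0.12 (Eef2), -0.07 ± 0.10 (Rpl41), -0.06 ± 0.11 (Eef1a1), -0.07 ± 0.11 (Eif4g1) and -0.09 ± 0.13 (Eef1a2, SE). Eif1b, at -0.25 ± 0.11 (SE), was the gene whose unadjusted p was under 0.05 (0.0445 in edgeR), and Eif4g2 had 0.20 ± 0.15 (SE). All 7 genes of start codon selection tested were below 0, between -0.35 and -0.02, with none past the test. Below 0 were 32 of all 51 translation genes and 3094 of all 6218 genes. With 2 libraries a group, these fits leave room for differences of the size of their errors.

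Genes of the same pathway outside the name rule were counted in lists chosen with earlier results known. No gene of these lists passed in a comparison of M14KD with SCR. The log2 change was below 0 for 50.4% of all genes in IP and for 49.2% in Input. The list of the mTOR branch, which tunes translation to nutrients, also took in the kinases Rps6ka1, Rps6ka2 and Rps6ka3. Of its 8 genes tested, 7 were below 0 in IP (median -0.34) and 6 in Input (median -0.14). Rps6kb1 was the gene above 0 in IP, at 0.39 ± 0.18, and had 0.66 ± 0.22 in Input (SE). Mtor had -0.35 ± 0.08 in IP and -0.21 ± 0.14 in Input, and Eif4ebp1 -0.39 ± 0.09 and -0.34 ± 0.09 (SE). Of 13 tRNA synthetases tested, which charge tRNAs with amino acids, 11 were below 0 in IP (median -0.27) and 8 in Input (median -0.05). Wars had -0.49 ± 0.13 in IP and -0.34 ± 0.14 in Input, and Aars -0.32 ± 0.10 and -0.34 ± 0.10 (SE). The list of the eIF2 phosphatase arm held Ppp1r15a and Ppp1r15b and also took in Atf4 and Ddit3. Of these 4 genes, 4 were below 0 in IP and 3 in Input (median -0.22 in both). Atf4, the factor made when eIF2 is phosphorylated, had -0.13 ± 0.07 in IP and -0.13 ± 0.08 in Input (SE). All 3 tested poly(A)-binding and TOP mRNA factors were below 0 in IP (median -0.17) and in Input (median -0.09). In IP, ribosome biogenesis had a median of 0.05 over 11 genes, termination and recycling 0.07 over 5, and Nap1l1, the one other TOP mRNA tested, 0.25 ± 0.13 (SE). Of 4 ribosomal proteins with other symbols, none was tested. In IP over Input in SCR, 8 of the 13 tRNA synthetases were lower and 2 higher, 7 of the 11 biogenesis genes were lower and 2 higher, and 4 of the 5 termination genes were lower and 0 higher, where 34.9% of all genes were lower and 35.3% higher. Larp1, which binds TOP mRNAs, was higher in IP than in Input, at 1.20 ± 0.08 in M14KD and 1.39 ± 0.08 in SCR (SE).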

How the data were processed

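Deposited were whole-number counts per site, with 1 column for each of the 8 libraries, per the file headers; UMI-tools, cutadapt, STAR and the mm10 build are named in the submitters' processing notes, and how sites were called and reads counted is not given in the sources used here. Depth was the column total, and intervals on counts were not needed because libraries were compared. Sites (start plus 1) were placed in RefSeq GRCm38.p6 gene spans, and counts were summed per gene over the 31504 sites (93.3%) with 1 protein-coding gene, which gave 6342 genes. Groups came from the sample titles. The test was edgeR 4.0.16 (R 4.3.3; filterByExpr, TMM, glmQLFit and glmQLFTest), fitted on all genes or all sites and called at an adjusted p (Benjamini-Hochberg) under 0.05; IP and Input were fitted alone for M14KD against SCR, and all 8 libraries together for IP over Input. Standard errors are the log2 change over the root of F. Alternatives were DESeq2 1.42.0, its size factors or column totals in edgeR, no filter, a mean count of at least 20, each replicate left out, a replicate block, 1 site per 100 bases, and no site in another gene's span. Scripts were tested on simulated data. IP and Input libraries of a number deviated together (correlation 0.45 in SCR and 0.30 in M14KD over 4117 genes), and the titles share those numbers; SCR and M14KD share none.

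The members and lists were chosen with earlier results of these data known. Genes are named by a rule: among genes with a mean count of at least 20, the 8 highest and 8 lowest ratios in SCR, the 5 largest non-overlapping rises and falls of each comparison, the 5 with the highest Input, the 5 with most sites, called genes, and Eef1a1, Eef1a2, Eef2 and Rpl37a always; role lists add examples. Other genes were named after their values were seen. Some alpha cell markers are not reported here.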

Additional observations from a re-analysis of the deposited data

How the results depend on the processing

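Counts of translation genes and sites called, higher or lower alike, and their median changes were compared with each alternative. They stayed within 1.5 times or within the spread between replicates in 145 of the 159 comparisons, all of them planned. A count of 0 in both settings was also held to be unchanged. The 14 exceptions are given here, with the ratios of single genes that changed sign under column totals or, where called, with thinned sites. Shifts between directions are not among the 14. With column totals, 32 lower and 6 higher translation genes in M14KD IP over Input became 19 lower and 18 higher. In SCR, 32 lower and 7 higher became 20 lower and 18 higher. DESeq2 called 2 translation genes in IP and 1 in Input, and 1 site in Input, against 0 in each with edgeR. Leaving out a replicate gave 0 to 2 genes in IP, 0 to 1 in Input and 0 to 27 sites in IP. Each fit of this kind that called a translation gene also called many other genes. Such a fit leaves 1 library in a group, so no conclusion is drawn from its counts of genes and sites called. Leaving out a replicate moved the median IP over Input in M14KD between -0.81 and -0.65. Column totals moved that median to -0.09 in M14KD and -0.10 in SCR, and 1 site per 100 bases moved it to -0.70 in SCR. With column totals the ratio of 11 translation genes was positive in M14KD where TMM gave a negative one: Eef1aknmt (0.41), Eef1b2 (0.12), Eef2k (0.44), Eef2kmt (0.61), Eefsec (0.39), Eif1b (0.67), Eif3a (0.24), Eif4e2 (0.69), Eif4g1 (0.41), Eif4g3 (0.70) and Eif5a (0.20). The same held for 12 in SCR: Eef1akmt1 (0.61), Eef1aknmt (0.51), Eef1g (0.65), Eef2 (0.01), Eef2k (0.51), Eef2kmt (0.43), Eefsec (0.39), Eif3a (0.28), Eif4g1 (0.49), Eif5a (0.19), Rpl36 (0.48) and Rps12 (0.09), as this scaling shifts every ratio by about the same amount. With 1 site per 100 bases the ratio of Eif1b in M14KD was 0.40 and that of Eif4g3 in SCR -0.47, each of the other sign; the cause was not tested. The replicate block, which pairs IP and Input libraries, left the median IP over Input at -0.80 in M14KD and -0.82 in SCR and moved no count of translation genes or sites called by over 1.5 times; unadjusted p for the difference of IP over Input was under 0.05 for 409 of all genes with it, against 159 without. Of the values of single genes under an alternative, 2892 kept their side of the threshold and either their direction or a value within 1 standard error, 52 no longer passed the threshold, 24 newly passed it, 21 changed sign with a call in at least 1 of both settings, and 52 changed sign by over 1 standard error with neither past it. Depth limits Rpl7a, Rpl24, Rps12 and Rps24 most.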
